A study of Ambystoma mexicanum with 20 samples.

Results

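LIMS1 and CSRP1 encode adaptor proteins built from LIM domains, small zinc-binding folds through which proteins hold on to one another at sites where a cell grips its surroundings. The 2 genes were selected on their measured levels in control limbs, since the study's lists of transcripts changed over time hold LIMS1 for the wound epidermis and CSRP1 for the soft tissue. Both are listed for the change between 0 and 3 days post-amputation (dpa) and for the change between 3 and 8 dpa. Each symbol was paired with 1 transcript, GFZP01013616.1 for LIMS1 and GFZP01016052.1 for CSRP1, out of 4778 paired transcripts of 3518 symbols and 180605 transcripts in the whole table. The sum per symbol is therefore the same number as the transcript, and a switch between transcripts of a gene cannot be told apart from a change of the gene.

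The samples came from the upper forelimbs of juvenile axolotls (Ambystoma mexicanum), amputated on both sides. In each tissue there were 5 groups: controls taken at 0 dpa and labelled DMSO, limbs injected with 25 mM MS-275 or with its solvent DMSO and taken at 3 dpa, and limbs treated in the same 2 ways and taken at 8 dpa. MS-275 inhibits class I histone deacetylases, enzymes that take acetyl groups off histones, and it was injected beneath the wound epidermis every other day after amputation. Each group had 2 libraries, and each library was a pool of 4 limbs from 2 animals, which makes 20 libraries in 10 groups. The p-values below therefore rest on the spread between the 2 pools of a group. The model estimates that spread over all its groups, so a p-value also depends on groups outside its comparison. The study counts 20 animals for both tissues together, so wound epidermis and soft tissue libraries of a condition share animals by that count. Which library shares with which is not stated in the sources used here. The deposited column names carry the same numbers in both tissues with MS-275 and at 8 dpa with DMSO. At 3 dpa with DMSO, and for replicate 2 of 0 dpa, the numbers differ between the tissues, and what they stand for is not stated. No strain or sex is given in the sources used here. The labelled tissues differed in their markers, with summed TPM of 14 keratinocyte transcripts from 1568 to 6517 in wound epidermis and from 56.36 to 1425 in soft tissue, and of 37 skeletal muscle transcripts from 1.12 to 213.54 in wound epidermis and from 2613 to 41687 in soft tissue. The 24 connective tissue transcripts summed to 925.44 to 4344 TPM in wound epidermis and 1368 to 10295 TPM in soft tissue, so both tissues held them.

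The name LIMS1 is the authors' best protein match, and the RefSeq table of the axolotl assembly used here for names has LIMS2 but no entry with that symbol. LIMS1, also known as PINCH1, is an adaptor that forms a complex with integrin-linked kinase and the parvins in mammalian cells. This complex sits at focal adhesions and ties integrins, the receptors for the extracellular matrix, to the actin cytoskeleton. CSRP1, cysteine and glycine rich protein 1, binds alpha-actinin and zyxin on actin filaments and is known from smooth muscle and from other mesenchymal cells. A wound epidermis that slides over a stump and a stump whose connective tissue loosens and moves both depend on adhesion sites and actin bundles.

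Levels are given as TPM, a transcript's share of a library's transcripts, scaled to a common total and already corrected for transcript length. LIMS1 averaged 4.68 TPM over the 10 wound epidermis libraries and 5.63 TPM over the 10 soft tissue libraries, which placed it above 91.9% and 93.1% of the transcripts detected in these tissues. CSRP1 averaged 14.8 TPM in wound epidermis and 36.5 TPM in soft tissue, above 96.7% and 98.4% of the detected transcripts. In bulk tissue, fewer cells of a type and less RNA per cell cannot be told apart.

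In wound epidermis, LIMS1 was listed at 0 in both control libraries of 3 dpa and at 2.17 TPM or more in every other library. It had 2.17 and 5.04 TPM at 0 dpa. At 3 dpa it had 13.28 and 6.63 TPM with MS-275, against 0 and 0 TPM with DMSO. At 8 dpa it had 7.79 and 2.82 TPM with MS-275, against 5.27 and 3.82 TPM with DMSO. The highest mean belonged to 3 dpa with MS-275 (9.96 TPM), followed by 8 dpa with MS-275 (5.31), 8 dpa with DMSO (4.55) and 0 dpa (3.61), and each of these groups overlapped with its neighbour in that order. Only 3 dpa with DMSO stood apart from the group above it. These wound epidermis levels include those that chose the gene, so they are a description and carry no test.

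LIMS1 in soft tissue, which its choice did not use, was at 0.03 TPM in 1 of the 2 control libraries of 3 dpa. It had 1.39 and 2.34 TPM at 0 dpa. At 3 dpa it had 13.05 and 10.82 TPM with MS-275, against 0.03 and 11.36 TPM with DMSO. At 8 dpa it had 4.43 and 3.51 TPM with MS-275, against 4.87 and 4.47 TPM with DMSO. With the low library the 3 dpa DMSO group covered the range of every other soft tissue group but the highest value of 3 dpa with MS-275.

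**Figure D1:**
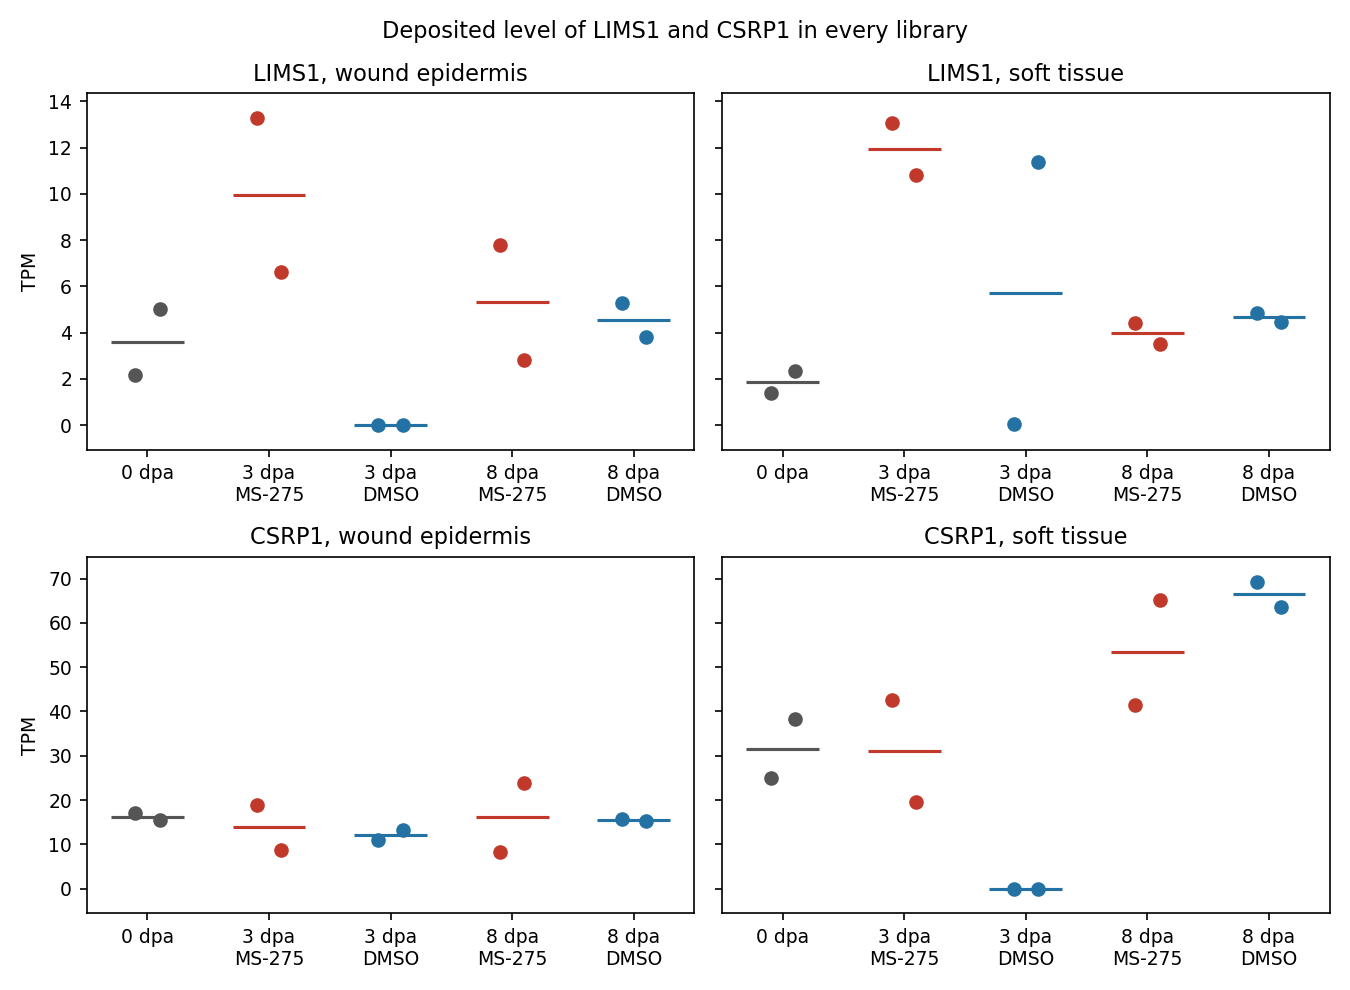
TPM of LIMS1 (upper panels) and CSRP1 (lower panels) in wound epidermis (left) and soft tissue (right). Points are single libraries, lines are the means of 2 libraries, red is MS-275, blue is DMSO and grey is 0 dpa. LIMS1 is at 0 in both wound epidermis libraries and at 0.03 in 1 soft tissue library of 3 dpa with DMSO, and CSRP1 is at 0 in both soft tissue libraries of that group.

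None of the 8 comparisons of LIMS1 in soft tissue passed the test (limma on log2(TPM + 0.1), 10 libraries in 1 model, two-sided, Benjamini-Hochberg adjusted over 87546 transcripts, threshold 0.05). For MS-275 against DMSO the difference was 3.30 at 3 dpa (SE 1.64, adjusted p = 0.31), in a comparison that called 3.48% of all transcripts. At 8 dpa it was -0.24 (SE 1.64, adjusted p = 0.958), where 1.26% of all transcripts were called. The SE is shared by all groups and takes in the 3 dpa DMSO libraries, which are not in the 8 dpa comparison. The 3 dpa difference was set by 1 control library. Without DMSO replicate 2 of 3 dpa it was 6.53 (adjusted p = 0.000691), and without DMSO replicate 1 it was 0.06 (adjusted p = 0.955). Each of these leaves 1 DMSO library, at 0.03 or 11.36 TPM, which is assumed to vary like the other groups, and the first value depends on the pseudocount of 0.1.

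Over time, LIMS1 in soft tissue differed in control limbs by -0.64 (3 against 0 dpa), 1.32 (8 against 0 dpa) and 1.97 (8 against 3 dpa). With MS-275 the differences in that order were 2.65, 1.08 and -1.57. Each of these had an SE of 1.64 on the log2(TPM + 0.1) scale, and the adjusted p ran from 0.308 to 0.848. In the same comparisons 15.3%, 30.0%, 1.91%, 20.3%, 19.0% and 0.0366% of all transcripts were called. Both 3 dpa libraries with MS-275 lay above both 0 dpa libraries, as they did for 44.2% of all transcripts. Leaving out either DMSO library of 3 dpa narrowed the spread that the model estimates for LIMS1, and the comparisons of both MS-275 groups, and of the DMSO group of 8 dpa, against 0 dpa then passed the test, with adjusted p between 0.00128 and 0.0458. For DMSO at 3 dpa against 0 dpa the difference was 2.59 without replicate 1 (adjusted p = 0.0053) and -3.87 without replicate 2 (adjusted p = 0.00188), so that its direction rested on 1 library. Likewise DMSO at 8 against 3 dpa gave -1.27 without replicate 1 and 5.20 without replicate 2 (adjusted p = 0.00162).

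In wound epidermis, the comparison of 8 dpa with 3 dpa under MS-275 is the only one that holds none of the libraries behind the choice of LIMS1. It gave -0.98 (SE 0.57, adjusted p = 0.545), with 0.0363% of all transcripts called. Between tissues, LIMS1 differed by -0.34 in wound epidermis vs. soft tissue at 3 dpa with MS-275 and by 0.25 at 8 dpa with MS-275 (SE 1.34 for both, adjusted p = 0.933 and 0.953, limma on all 20 libraries). These comparisons called 11.3% and 10.9% of 96627 transcripts. The direction at 3 dpa turned to 0.16 without wound epidermis replicate 2, and that at 8 dpa to -0.47 without wound epidermis replicate 1.

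CSRP1 showed the same contrast in the other tissue. In soft tissue it was listed at 0 in both control libraries of 3 dpa and at 19.52 TPM or more in every other library. It had 24.93 and 38.21 TPM at 0 dpa. At 3 dpa it had 42.48 and 19.52 TPM with MS-275, against 0 and 0 TPM with DMSO. At 8 dpa it had 41.55 and 65.19 TPM with MS-275, against 69.31 and 63.48 TPM with DMSO. The order of the means was 8 dpa with DMSO (66.4 TPM), 8 dpa with MS-275 (53.4), 0 dpa (31.6), 3 dpa with MS-275 (31.0) and, last, the DMSO group of 3 dpa, and among neighbours only the groups of 8 dpa, and 0 dpa with 3 dpa under MS-275, overlapped. After division by each library's median ratio factor, which corrects for how its typical transcript stands against the tissue's average, 8 dpa with DMSO had 45.1 and 42.6, against 36.7 and 72.1 for 0 dpa, so the top of that order depended on the scaling. The values at 3 dpa with DMSO stayed at 0. These soft tissue levels chose the gene and carry no test.

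Of the soft tissue comparisons, only 8 dpa vs. 3 dpa under MS-275 leaves those libraries out. CSRP1 differed there by 0.85 (SE 0.39, adjusted p = 0.44).

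In wound epidermis, CSRP1 lay between 8.31 and 23.86 TPM in all 10 libraries. It had 17.08 and 15.38 TPM at 0 dpa. At 3 dpa it had 18.9 and 8.79 TPM with MS-275, against 11.05 and 13.24 TPM with DMSO. At 8 dpa it had 8.31 and 23.86 TPM with MS-275, against 15.65 and 15.36 TPM with DMSO. The 2 MS-275 libraries of a time point lay further apart than the 2 DMSO libraries, and all groups overlapped with their neighbours in the order of means.

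No wound epidermis comparison of CSRP1 passed the test. MS-275 against DMSO gave 0.09 at 3 dpa (SE 0.49, adjusted p = 0.964) and -0.14 at 8 dpa (SE 0.49, adjusted p = 0.883). In these comparisons 0.418% and 12.2% of 88139 transcripts were called. Both directions turned under rescaled TPM, to -0.15 and 0.57, and neither was called there. In control limbs the differences were -0.42 (3 against 0 dpa), -0.06 (8 against 0 dpa) and 0.36 (8 against 3 dpa), with 1.18%, 5.68% and 5.78% of transcripts called. With MS-275 they were -0.33, -0.20 and 0.13 in the same order, with 6.88%, 7.05% and 0.0363% called. The adjusted p of these 6 ran from 0.686 to 0.963.

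CSRP1 was lower in wound epidermis than in soft tissue at 8 dpa with MS-275. At 8 dpa with MS-275 it had 8.31 and 23.86 TPM in wound epidermis, against 41.55 and 65.19 TPM in soft tissue, a difference of -1.88 (SE 0.48, adjusted p = 0.0219). At 3 dpa with MS-275 it had 18.9 and 8.79 TPM in wound epidermis, against 42.48 and 19.52 TPM in soft tissue, a difference of -1.15 that did not pass (SE 0.48, adjusted p = 0.152). The call at 8 dpa was lost under rescaled TPM (-1.44, adjusted p = 0.0963), without wound epidermis replicate 1 (-1.12, adjusted p = 0.219) and without soft tissue replicate 2 (-1.55, adjusted p = 0.176). The SE is estimated over all 10 groups, so it takes in the soft tissue control libraries that chose CSRP1. Those at 0 in both libraries of 3 dpa with DMSO add no spread to it. These tests take the libraries as independent. A replicate term for each condition takes libraries of both tissues with the same replicate label as 1 pool of animals. Their column numbers differ at 3 dpa with DMSO and for replicate 2 of 0 dpa, so this pairing is assumed. With it the adjusted p was 0.00319 at 8 dpa and 0.0259 at 3 dpa (limma). The difference at 3 dpa thus passed only under that assumed pairing, which was added after seeing the data. Smooth muscle is a cell type known for CSRP1. At 8 dpa with MS-275 its 7 transcripts summed to 57.5 and 49.51 TPM in wound epidermis, against 147.78 and 133.85 TPM in soft tissue. Connective tissue sums were 1864 and 1164 TPM, against 5944 and 5058 TPM. Skeletal muscle sums were 102 and 213.54 TPM, against 7938 and 7063 TPM. Keratinocyte sums went the other way, at 3848 and 4564 TPM, against 81.29 and 78.04 TPM. CSRP1 was higher in replicate 2 of each tissue. In soft tissue every one of these sums was higher in replicate 1. In wound epidermis the smooth muscle and connective tissue sums were higher in replicate 1, and the skeletal muscle and keratinocyte sums in replicate 2. The part of any of these cells in the difference was not tested.

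**Figure D2:**
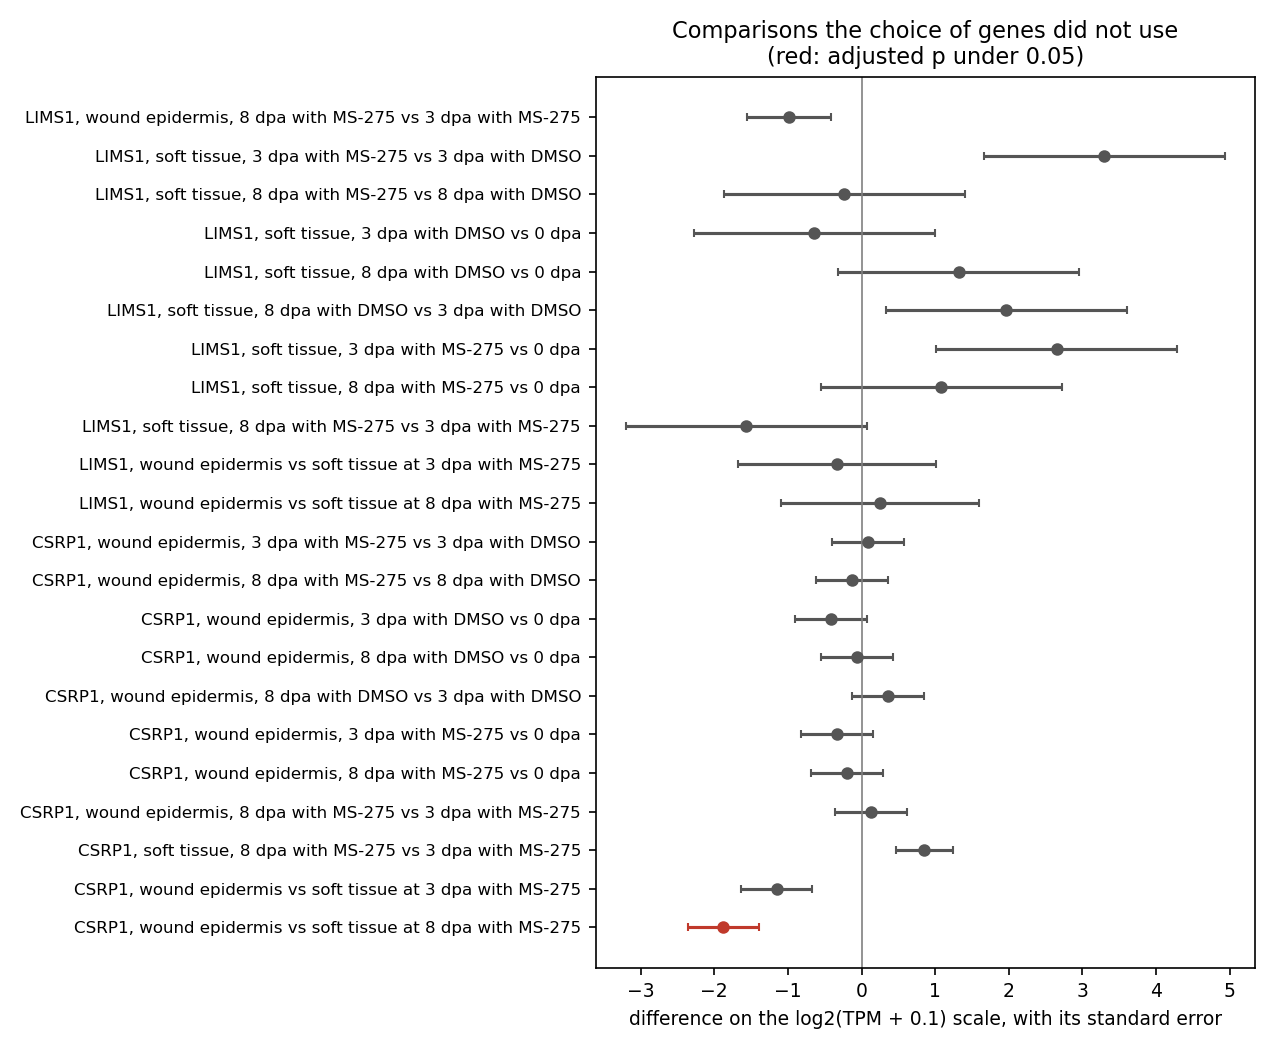
Differences of LIMS1 and CSRP1 in the comparisons that their choice did not use. The horizontal axis is the difference on the log2(TPM + 0.1) scale, the group named first minus the other, and bars are standard errors. Where a model holds the libraries behind the choice, they enter its standard errors. CSRP1 in wound epidermis vs. soft tissue at 8 dpa with MS-275 (-1.88) is the only one with an adjusted p under 0.05 when libraries are taken as independent.

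The effect of MS-275 on the 2 genes was also compared between time points and tissues. Contrasts that hold the libraries at 0 were left out, but the one between tissues at 8 dpa holds 8 dpa control libraries behind the choice. For LIMS1 in soft tissue the effect at 3 dpa minus that at 8 dpa was 3.53 (SE 2.32, adjusted p = 0.492), and for CSRP1 in wound epidermis it was 0.23 (SE 0.69, adjusted p = 0.876). At 8 dpa the effect in wound epidermis minus that in soft tissue was 0.30 for LIMS1 (SE 1.90, adjusted p = 0.985) and 0.21 for CSRP1 (SE 0.68, adjusted p = 0.967). Whether the effects in wound epidermis and soft tissue differ at 3 dpa was not tested, because that contrast holds the libraries at 0.

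Zeros of this kind were rare in both tissues. Each pattern counted here was read off the gene's own values, mostly in the control libraries behind its choice. The counts are therefore a description and carry no test. Among the 17560 transcripts with at least 1 TPM in each of the other 8 wound epidermis libraries, LIMS1 was the only 1 listed at 0 in both control libraries of 3 dpa (0.00569%). In soft tissue, 6 of 13782 such transcripts were listed at 0 in both control libraries of 3 dpa (0.0435%), and CSRP1 was the only 1 of 4273 with at least 5 TPM in the other 8 libraries (0.0234%). The other one of the 6 with a symbol was tmem69, a transmembrane protein gene, at 0 and 0 TPM there and at 1.39 to 4.35 TPM in the other soft tissue libraries. Over all 20 libraries, LIMS1 was under 0.05 TPM in 3 and between 1.39 and 13.28 TPM in 17, and it was the only 1 of 11308 transcripts with at least 1 TPM in those 17 that was under 0.05 TPM in the same 3. CSRP1 was at 0 in 2 libraries and between 8.31 and 69.31 TPM in 18. Of 11129 transcripts with at least 1 TPM in those 18, 4 were under 0.05 TPM in the same 2, CSRP1 included.

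Genes at high levels were also listed at 0 in some groups. In the 2 control libraries of wound epidermis at 8 dpa, CIRBP, a cold-inducible RNA-binding protein, was listed at 0, while the other 8 wound epidermis libraries had 2719 to 6508 TPM. Rpl23, a ribosomal protein gene that all cells use, was listed at 0 in those 2 libraries as well, against 1788 to 3075 TPM elsewhere in wound epidermis. Of 18 other genes that every cell uses, chosen by name, 10 were paired, with 17 transcripts. Only 1 of these transcripts reached 0 in any library, an RPS3 transcript with a median of 0.22 TPM. DDX21, which is not on that list, was listed at 0 in both DMSO libraries of 8 dpa in each tissue. So short a list does not show how usual such zeros are. Transcripts at 0 in both libraries of a group and at 1 TPM or more in the other 8 numbered between 1 and 9 per group in wound epidermis and between 1 and 60 in soft tissue. RSEM, the program that made the values, divides reads among transcripts with shared sequence, and whether reads of LIMS1 and CSRP1 went to other transcripts in the libraries at 0 was not tested. For this reason no fold against those groups is given.

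**Figure D3:**
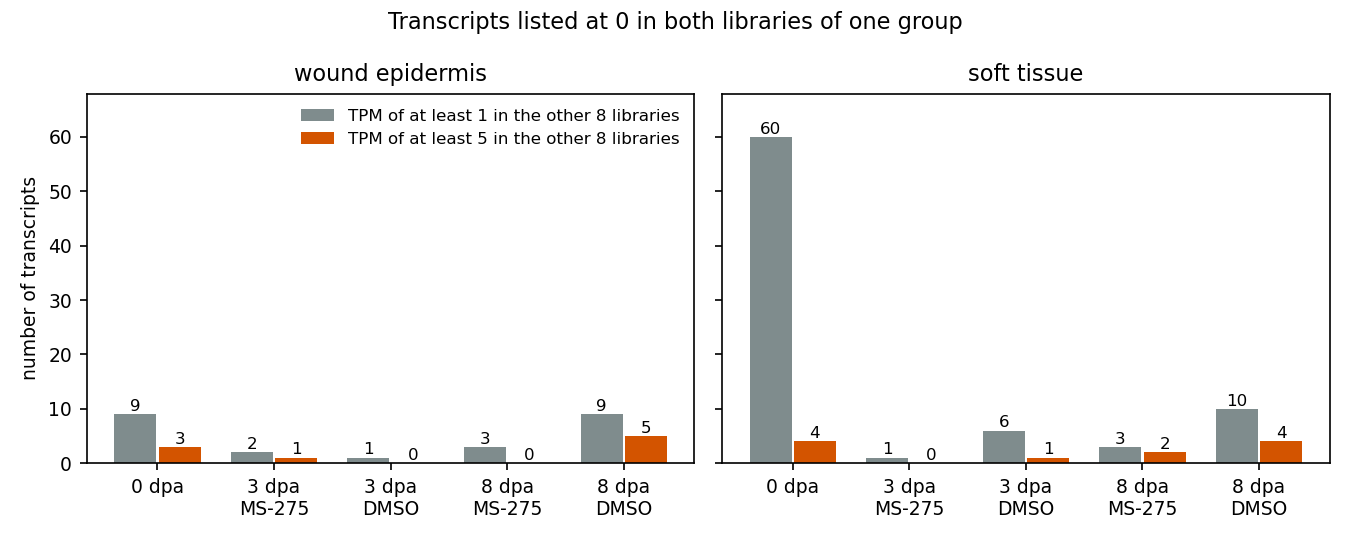
Number of transcripts listed at 0 in both libraries of a group and at 1 TPM or more (grey) or 5 TPM or more (orange) in the other 8 libraries of the tissue, by group. LIMS1 is the 1 transcript of 3 dpa with DMSO in wound epidermis, CSRP1 is 1 of the 6 of 3 dpa with DMSO in soft tissue, and the tallest bar is 0 dpa in soft tissue with 60.

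Summed marker levels in the 3 dpa groups in which a member was at 0 also differed between treatments. They are given for 2 libraries each without a test, and do not separate cell numbers from RNA per cell. The summed TPM of 14 keratinocyte transcripts in wound epidermis at 3 dpa was 6517 and 6035 with MS-275, against 2243 and 4116 with DMSO. In soft tissue at 3 dpa, 37 skeletal muscle transcripts summed to 5054 and 4150 with MS-275, against 21188 and 7943 with DMSO. The 7 smooth muscle transcripts summed there to 164.29 and 131.64 with MS-275, against 124.59 and 118.13 with DMSO, and none of them was at 0 in both libraries of either group. The 24 connective tissue transcripts summed there to 6526 and 5062 with MS-275, against 2393 and 3828 with DMSO, and the 14 keratinocyte transcripts to 546.52 and 1425 with MS-275, against 56.36 and 132.65 with DMSO. The share of these cells in the levels of LIMS1 and CSRP1 was not tested.

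Some transcripts had a high Pearson r with the members over the 20 libraries, which include those behind the choice of the genes. Among 32181 transcripts with a mean of at least 1 TPM, those closest to LIMS1 with a symbol were Pol (Pearson r = 0.78 of log2(TPM + 0.1)), SEMA3F, a secreted semaphorin (0.76), Drap1 (0.72), KLHDC8A (0.69) and AGRN, the matrix proteoglycan agrin (0.69). SEMA3F had 1.05 and 1.79 TPM in the wound epidermis libraries where LIMS1 was at 0, the lowest in that tissue, but 1.95 TPM in the soft tissue library where LIMS1 was at 0.03, above both 0 dpa libraries of soft tissue. The closest of all was GFZP01054274.1, which has no symbol (r = 0.84). The most opposed with a symbol were LYRM2 (-0.73), mrpl24 (-0.68), rnasek-a (-0.66), tma16 (-0.66) and MRPL21 (-0.60). Spearman's rho with LIMS1 ran from 0.43 (KLHDC8A) to 0.66 (SEMA3F) for the closest with a symbol. For the most opposed with a symbol it ran from -0.79 (LYRM2) to -0.25 (mrpl24). On rescaled TPM the Pearson r was -0.47 for LYRM2 and -0.46 for MRPL21. The r of all of these also draws on the libraries in which LIMS1 was at or near 0. LYRM2 had 22.53, 17.4 and 15.75 TPM in the 3 libraries in which LIMS1 was lowest, and 18.66 TPM at most in the other 17.

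The transcript most opposed to LIMS1, GFZP01079617.1, has no symbol in the lists (r = -0.78). It had 102.94 and 82.7 TPM in wound epidermis at 3 dpa with DMSO and 73.31 TPM in replicate 1 of soft tissue at 3 dpa with DMSO, the 3 libraries in which LIMS1 was under 0.05. It had 17.77 TPM in wound epidermis and 28.19 TPM in soft tissue in replicate 2 of 0 dpa, 2.81 TPM in 1 soft tissue library of 8 dpa with MS-275, and 0.04 TPM or less in the other 14 libraries. In the 2 libraries of 0 dpa where it was high, LIMS1 had 5.04 and 2.34 TPM.

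Of the transcripts with a symbol, CSRP1 was closest to tmem69 (r = 0.90), Erh (0.89), SH3KBP1, an endocytic adaptor (0.85), spr (0.85) and MYOF, a membrane repair protein (0.82). GFZP01012004.1, which has no symbol, was closer than any of these (0.92). Erh, a small nuclear protein that most cells make, had 0.72 and 0.64 TPM in soft tissue at 3 dpa with DMSO and between 53.9 and 229.53 TPM in the other 18 libraries. Its Spearman's rho with CSRP1 was 0.18. That of tmem69 was 0.25, of SH3KBP1 0.67, of spr -0.09 and of MYOF 0.45. The high r of Erh, tmem69 and spr was thus not matched in rank order, and it draws on the 2 libraries at 0 that chose CSRP1. Among the most opposed with a symbol were Cd69, a receptor on activated leukocytes (-0.71), Ywhah (-0.64) and DDX51 (-0.57). Cd69 had 14.04 and 19.51 TPM in soft tissue at 3 dpa with DMSO, but also 13.66 TPM in 1 wound epidermis library of 3 dpa with MS-275, where CSRP1 had 8.79 TPM. All of these are descriptions over libraries that share tissue, time and treatment.

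**Figure D4:**
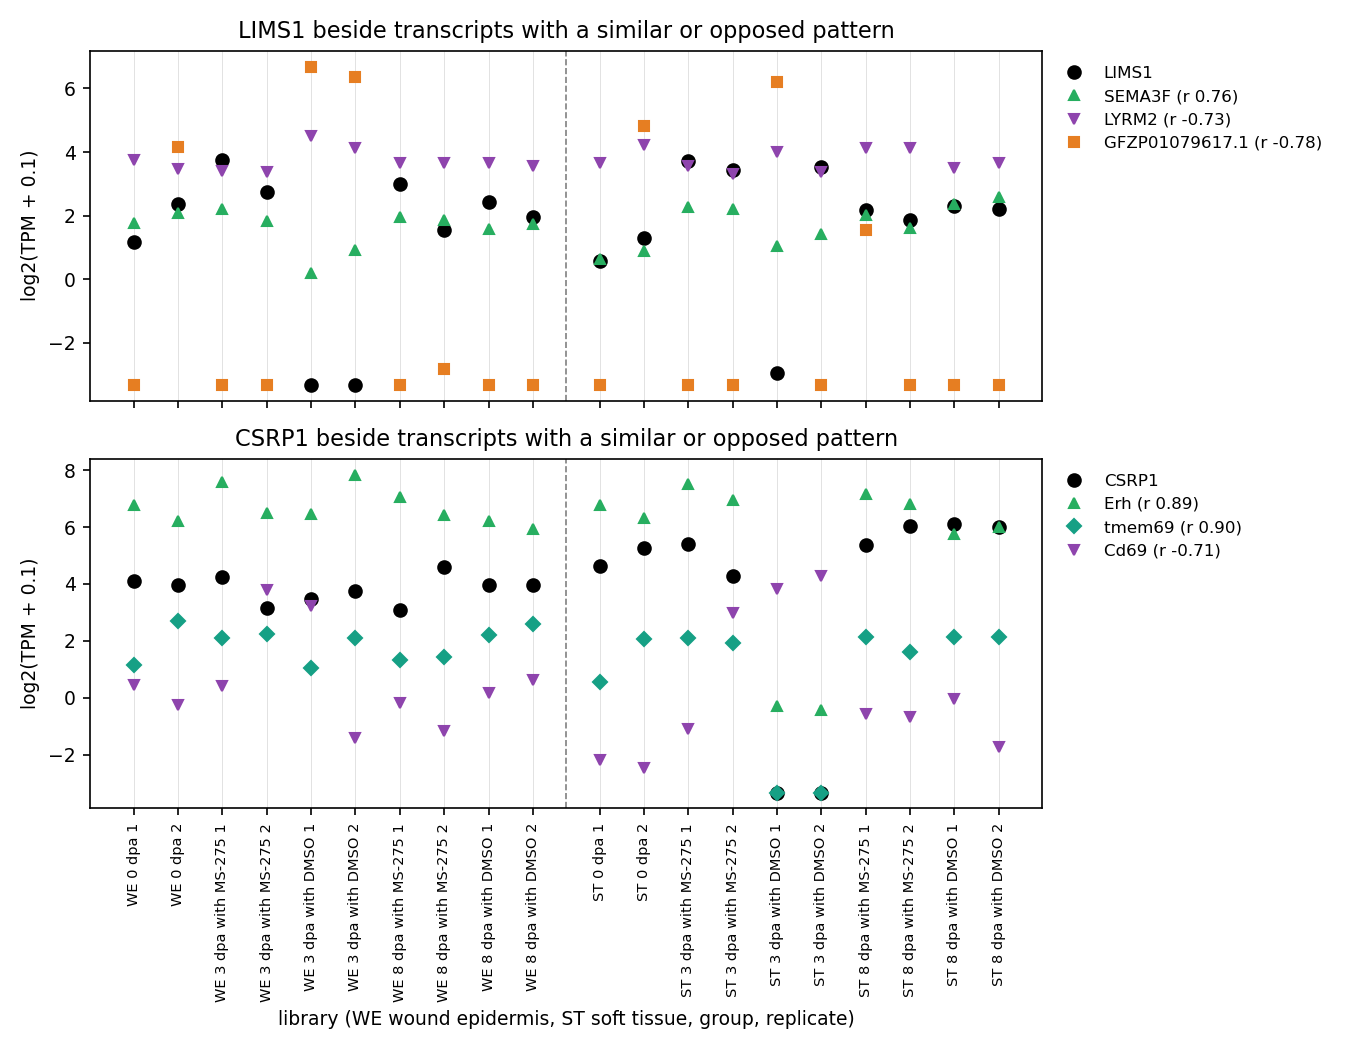
Level of LIMS1 (upper panel) and CSRP1 (lower panel) as log2(TPM + 0.1) in the 20 libraries, beside transcripts with a similar or an opposed pattern and their Pearson r. A listed 0 sits at the bottom of each panel, and the dashed line parts wound epidermis from soft tissue. GFZP01079617.1 is high in the 3 libraries where LIMS1 is lowest, and Erh and tmem69 are low in the 2 libraries where CSRP1 is at 0.

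Transcripts named for relatives of the 2 genes did not share the zeros. LIMS2, the second PINCH protein, had 1.13 and 1.04 TPM in wound epidermis at 3 dpa with MS-275, against 0.71 and 1.37 TPM with DMSO. Its soft tissue values at 3 dpa were 5.76 and 3.88 TPM with MS-275, against 4.04 and 4.29 TPM with DMSO. CSRP3, the muscle LIM protein of striated muscle, had 97.21 and 76.75 TPM in soft tissue at 3 dpa with MS-275, against 350.81 and 97.79 TPM with DMSO. At 8 dpa in soft tissue it had 167.48 and 195.62 TPM with MS-275, against 46.05 and 44.49 TPM with DMSO. Neither gene passed the test for MS-275 against DMSO in either tissue (adjusted p from 0.0869 to 0.927), and relatives with similar sequence can share reads.

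Of the 35 names of the LIMS1 complex and of focal adhesions, LIMS1 included, 18 were paired, and the 17 without LIMS1 had 23 transcripts. All names in this and the next lists were limited to transcripts in the study's lists of changes in these same control samples, so their counts are not independent evidence of a direction. In wound epidermis at 3 dpa none of 22 transcripts was called by limma for MS-275 against DMSO (6 at an unadjusted p under 0.05), where 0.348% of all transcripts rose and 0.0692% fell, and their median difference was 0.35, beside 0.17 for all transcripts. In wound epidermis at 8 dpa, where 2.0% of all transcripts rose and 10.2% fell, 2 of 22 fell and none rose, with a median of -0.33 beside -0.48 for all. The 2 were FLNA, the actin cross-linker filamin A (8.81 and 7.94 TPM with MS-275, 17.24 and 21.89 TPM with DMSO, -1.21), and ITGAV, the integrin alpha V chain (6.88 and 6.02 TPM with MS-275, 13.29 and 14.55 TPM with DMSO, -1.10).

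In soft tissue at 3 dpa, where 2.86% of all transcripts rose and 0.616% fell, 1 of 23 transcripts of that list rose. This was FBLIM1, the LIM protein migfilin that binds filamin and kindlin, with 11.33 and 9.99 TPM with MS-275, against 5.33 and 5.85 TPM with DMSO (0.92, SE 0.18, adjusted p = 0.0353). In soft tissue at 8 dpa, where 0.434% of all transcripts rose and 0.826% fell, 1 of 23 fell, again FLNA, with 16.86 and 15.92 TPM with MS-275, against 50.54 and 50.89 TPM with DMSO (-1.62, SE 0.22, adjusted p = 0.0269). PARVA, the parvin that binds integrin-linked kinase, had 4.55 and 6.07 TPM there with MS-275, against 11.65 and 11.35 TPM with DMSO, and did not pass (-1.11, adjusted p = 0.0882). TLN1, which activates integrins, FERMT2, a kindlin, and NCK1, an adaptor on the same list, did not pass in any of the 4 comparisons, with differences from -1.45 to 0.99.

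Of the 29 names of partners of CSRP1 and contractile genes, CSRP1 included, 18 were paired, and the 17 without CSRP1 had 28 transcripts. In wound epidermis at 3 dpa none of 25 was called by limma (4 at an unadjusted p under 0.05), with a median of 0.56 beside 0.17 for all transcripts. In wound epidermis at 8 dpa, 5 of 25 rose and 2 fell (2.0% and 10.2% of all transcripts), with a median of 0.56 beside -0.48 for all transcripts. CNN1, a calponin of smooth muscle, had 3.99 and 3.93 TPM with MS-275, against 1.41 and 1.6 TPM with DMSO (1.34, SE 0.22, adjusted p = 0.0108). The others that rose were 2 transcripts of TPM2 and 1 each of TPM1 and ACTN3, genes of muscle thin filaments and Z-discs. TPM1 (GFZP01128996.1) had 8.54 and 25.19 TPM with MS-275 and was listed at 0 in both DMSO libraries, as was ACTN3, with 1.36 and 2.83 TPM with MS-275. The 37 skeletal muscle transcripts were also higher, at sums of 102 and 213.54 TPM with MS-275, against 1.12 and 2.02 TPM with DMSO, and their part was not tested. TPM2 GFZP01162082.1 had 197.92 and 128.17 TPM with MS-275. With DMSO it had 35.61 and 56.14 TPM, and the part of muscle cells in this transcript was not tested. MYL9, a light chain of smooth muscle myosin, fell by 1.83 for 1 transcript, and MYLK, its kinase, fell for 1 transcript, with 0.78 and 0.8 TPM with MS-275, against 2.73 and 2.15 TPM with DMSO.

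At 3 dpa in soft tissue, 1 of 28 of these transcripts rose and 2 fell (2.86% and 0.616% of all transcripts), with a median of -0.02 beside 0.09 for all. ACTA1, the actin of skeletal muscle, had 92.94 and 74.68 TPM with MS-275, against 1178.61 and 543.83 TPM with DMSO (-3.26, SE 0.39, adjusted p = 0.0118). TPM1 (GFZP01079171.1) fell by 2.73 and MYLK (GFZP01168589.1) rose by 2.86. This TPM1 transcript was low, with 0.61 and 0.36 TPM with MS-275, against 6.21 and 2.18 TPM with DMSO. TPM1 GFZP01128996.1 had 768.03 and 683.78 TPM with MS-275, against 5482.23 and 1668.72 TPM with DMSO. It did not pass (-2.06, limma adjusted p = 0.0934), nor did MYLK GFZP01017334.1 (1.05, 0.0992). The skeletal muscle sums, which include ACTA1, were 5054 and 4150 TPM in these libraries with MS-275, against 21188 and 7943 TPM with DMSO, and their part in the falls was not tested. At 8 dpa in that tissue, 1 of 28 fell (0.826% of all transcripts), with a median of 0.02 beside -0.33 for all. This was MYL9, with 29.33 and 32 TPM with MS-275, against 89.59 and 86.66 TPM with DMSO (-1.52, adjusted p = 0.0236). TAGLN, the smooth muscle protein transgelin, had 61.6 and 68.13 TPM there with MS-275, against 131.2 and 127.9 TPM with DMSO, and did not pass (adjusted p = 0.0691). The smooth muscle sums, which include TAGLN, were 147.78 and 133.85 TPM there with MS-275, against 251.44 and 246.62 TPM with DMSO, and the connective tissue sums 5944 and 5058 TPM with MS-275, against 10272 and 10295 TPM with DMSO. Their part in the values of MYL9, TAGLN and FLNA was not tested. VASP, which extends actin filaments and binds zyxin, did not pass in any comparison. It had 27.17 and 24.41 TPM in wound epidermis at 3 dpa with MS-275, against 10.16 and 14.79 TPM with DMSO (1.06, adjusted p = 0.0768).

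Other genes with LIM domains were paired for 22 of 42 names, with 30 transcripts. In wound epidermis none of 29 was called by limma at 3 dpa (7 at an unadjusted p under 0.05), and 4 rose and 3 fell at 8 dpa (2.0% and 10.2% of all transcripts), with medians of 0.48 and 0.43 beside 0.17 and -0.48 for all. In soft tissue, 4 of 29 rose at 3 dpa (2.86% of all), and 1 fell at 8 dpa (0.826% of all), with medians of 0.20 and -0.02 beside 0.09 and -0.33. CRIP1, a small LIM protein related to CSRP1, had 415.48 and 387.73 TPM in soft tissue at 3 dpa with MS-275, against 168.16 and 181.74 TPM with DMSO (1.20, SE 0.19, adjusted p = 0.0211). It also rose in wound epidermis at 8 dpa, with 185.23 and 210.14 TPM with MS-275, against 109.55 and 100.07 TPM with DMSO (0.91, SE 0.21, adjusted p = 0.0299). FHL2, LIMA1 and LMO7, which bind actin or signalling proteins, rose in soft tissue at 3 dpa by 0.93, 2.60 and 1.47. LIMA1 had 7.43 and 18.39 TPM there with MS-275, against 1.84 and 1.84 TPM with DMSO, and 26.96 to 57.12 TPM in wound epidermis at 3 dpa. The keratinocyte sums in the same soft tissue libraries were 546.52 and 1425 TPM with MS-275, against 56.36 and 132.65 TPM with DMSO, and their part in these rises was not tested. In wound epidermis at 8 dpa, 2 transcripts of PDLIM2 rose by 0.72 and 1.56 and LMO2 by 1.35, while LPXN fell by 1.57, LPP by 1.44 and FHL2 by 0.69. LPP, a partner of alpha-actinin at adhesions, also fell in soft tissue at 8 dpa, by 1.75.

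**Figure D5:**
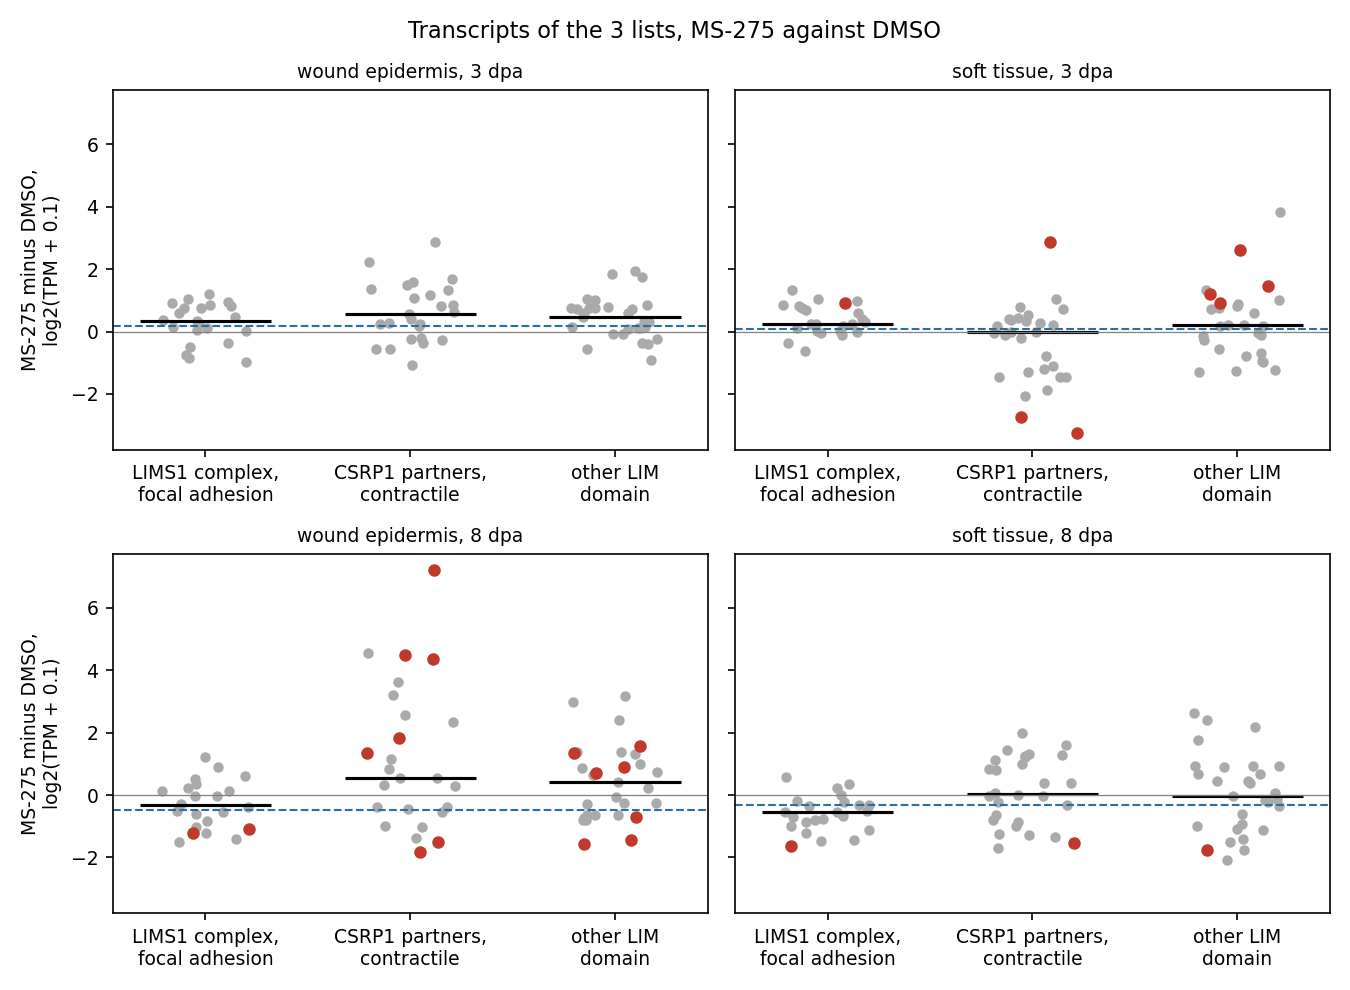
Difference of MS-275 minus DMSO on the log2(TPM + 0.1) scale for the transcripts of the 3 lists, LIMS1 and CSRP1 left out. Points are transcripts (red, adjusted p under 0.05), black lines are list medians and the dashed line is the median of all transcripts, which is -0.48 in wound epidermis and -0.33 in soft tissue at 8 dpa.

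The numbers of rises and falls called depended on the scaling. Rescaling by median ratios moved the median of all transcripts for MS-275 against DMSO to 0.03 in wound epidermis and 0.01 in soft tissue at 8 dpa, and to 0.01 and 0.03 at 3 dpa. Over all transcripts in wound epidermis at 8 dpa, 1759 rose and 8982 fell as deposited, and 2766 rose and 1608 fell when rescaled. The calls in soft tissue at 8 dpa were 380 higher and 723 lower as deposited, and 365 higher and 101 lower when rescaled. On rescaled TPM in wound epidermis at 8 dpa, 1 focal adhesion transcript rose, 8 of the contractile list and 6 of the other LIM genes rose, and none of the 3 lists had a fall, so that FLNA (-0.50), ITGAV (-0.39) and the others that fell there lost their calls and FHL2 turned to 0.02. CRIP1 (1.63) and CNN1 (2.01) were called on both scales there. For soft tissue at 3 dpa, ACTA1, TPM1 and LIMA1 were still called on rescaled TPM, and CRIP1 (1.11, adjusted p = 0.0525) and FBLIM1 (0.83, adjusted p = 0.0654) were not. FHL2 (0.84, limma adjusted p = 0.0704), LMO7 (1.39, 0.0557) and MYLK GFZP01168589.1 (2.76, 0.0654) lost their calls there as well. At 8 dpa in soft tissue none of the 3 lists had a call on that scale. The counts also changed when single libraries were left out. Leaving out 1 of the libraries compared leaves 1 in a group, and the calls over all transcripts also fell in some of these fits. The list counts that follow therefore do not separate the weight of 1 library from the smaller group. Without any 1 of the 4 libraries compared, the focal adhesion list had 0 calls in each of its comparisons, and all 3 lists had 0 calls in soft tissue at 8 dpa. In wound epidermis at 8 dpa the contractile list had 0 calls without replicate 1 of either treatment, and the other LIM genes had 0 without DMSO replicate 2 or either MS-275 library. In soft tissue at 3 dpa the contractile list had 0 without MS-275 replicate 2, and the other LIM genes had 0 without that library, without DMSO replicate 1 or without either DMSO library of 8 dpa, which enters through the shared spread.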

How the data were processed

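RNA of 20 libraries was sequenced. Per the labels and the study's methods, the authors used cutadapt for trimming, bowtie2 for alignment to an axolotl transcriptome and RSEM for the deposited TPM per transcript, which has 2 decimals. Read counts were not used here, so depth is unknown and values carry no counting interval. Libraries had 72566 to 92979 transcripts above 0. The authors named transcripts by best protein matches. Symbols came from shortened copies of their lists of changed transcripts, whose fold changes and p-values were not used.

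Each column was matched to its sample by its label, and 0 columns were left out. Differences were tested with limma 3.58.1 (R 4.3.3) on log2(TPM + 0.1), with a trend and no covariate, for transcripts above 0 in at least 5 of 10 libraries of the tissue. The voom step of the study needs counts and was not repeated. A fold on this scale understates changes of low transcripts. With 2 against 2 libraries an exact permutation test cannot go below p = 0.333, so none was used. The fit was tested on simulated data. The alternatives were pseudocounts of 1 and 0.01, a mean TPM of at least 1, no filter, TPM divided by median-ratio factors per library (rescaled TPM), no trend, a replicate block, all 20 libraries in 1 model and leaving out each replicate. LIMS1, CSRP1, the lists and the tests were chosen with earlier results of these data known. Of the lists, 12 genes were always named, with any transcript called for MS-275 against DMSO, and by likeness the 5 most alike and 5 most opposed with a symbol. Some of these are not reported here.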

Additional observations from a re-analysis of the deposited data

Results flagged for a closer look

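Neither LIMS1 nor CSRP1 was singled out here, and their contrasts that hold the libraries at 0 were left out. The effect of MS-275 at 3 dpa minus that at 8 dpa passed limma's test of the difference itself for some transcripts of the lists, FLNA and LMO7 in both tissues. Only the always named genes and transcripts already called for MS-275 against DMSO in some comparison were looked at. That choice favours transcripts that pass, and the share over all transcripts is not given here, so their number is no result about the lists. In wound epidermis it was 1.95 for FLNA (adjusted p = 0.0219), 1.93 for ITGAV (0.0395), 1.57 for LMO7 (0.0357), 1.76 for MYLK GFZP01017334.1 (0.0497) and 2.38 for MYLK GFZP01168589.1 (0.0413), which had higher values with MS-275 at 3 dpa and lower ones at 8 dpa. MYL9 GFZP01090440.1 differed by 4.71 (0.0135), a value that depends on the pseudocount because it was listed at 0 in both DMSO libraries of 3 dpa. TPM2 GFZP01162082.1 and LMO2 went the other way, by -2.20 (0.0268) and -2.26 (0.0217). In soft tissue the difference was 2.45 for FLNA (0.025), 4.12 for LIMA1 (0.0304), 2.45 for LMO7 (0.0409) and -4.55 for ACTA1 (0.0225). On rescaled TPM, of these only MYL9, TPM2, LMO2 and ACTA1 still passed, with adjusted p from 0.0225 to 0.0478. CRIP1 (-1.76, limma adjusted p = 0.0235) and CNN1 (-2.01, 0.0318) in wound epidermis passed on that scale only. Between wound epidermis and soft tissue no difference of this kind passed for the list transcripts looked at.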

How the results depend on the processing

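Under rescaled TPM, CSRP1 in wound epidermis turned to -0.15 and 0.57 for MS-275 against DMSO at 3 and 8 dpa, to -0.35 for 8 dpa vs. 3 dpa with DMSO and to 0.034 for MS-275 at 8 dpa against 0 dpa, LIMS1 in soft tissue turned to 0.20 for MS-275 at 8 dpa, and CSRP1 in wound epidermis vs. soft tissue at 8 dpa lost its call (-1.44). With a pseudocount of 1, LIMS1 in soft tissue at 3 dpa vs. 0 dpa with DMSO turned to 0.34. The causes were not tested.

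Leaving out 1 library, CSRP1 in wound epidermis ran from -0.46 to 0.64 and from -0.89 to 0.62 for MS-275 at 3 and 8 dpa, from -0.55 to -0.29, -0.14 to 0.012 and 0.23 to 0.48 for 3 against 0, 8 against 0 and 8 against 3 dpa with DMSO, and from -0.88 to 0.22, -0.96 to 0.56 and -0.63 to 0.88 for the same with MS-275. LIMS1 in soft tissue ran from 0.064 to 6.53 and -0.40 to -0.07 for MS-275 at 3 and 8 dpa, from -3.87 to 2.59, 0.97 to 1.68 and -1.27 to 5.20 over time with DMSO, and from 2.296 to 3.01, 0.73 to 1.44 and -1.73 to -1.40 with MS-275. For 8 dpa vs. 3 dpa with MS-275, LIMS1 in wound epidermis ran from -1.70 to -0.27 and CSRP1 in soft tissue from 0.29 to 1.41. In wound epidermis vs. soft tissue at 3 and 8 dpa, LIMS1 ran from -0.83 to 0.16 and -0.47 to 0.96, and CSRP1 from -1.71 to -0.59 and -2.63 to -1.12. List counts in wound epidermis at 3 and 8 dpa and soft tissue at 3 and 8 dpa ran from 0 to 0, 3, 2 and 4 (focal adhesion), 2, 11, 10 and 3 (contractile) and 2, 9, 6 and 5 (other LIM).

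Counts of the focal adhesion list moved to 1 in wound epidermis at 3 dpa with all 20 libraries in 1 model. At 8 dpa in wound epidermis they were 4 with a pseudocount of 1 or a mean TPM of at least 1, 1 without the filter or rescaled, 0 without the trend and 7 with 20 libraries. In soft tissue at 3 dpa they were 2 with a pseudocount of 1, 3 with a mean of at least 1 or 20 libraries, and 0 rescaled or without the trend. In soft tissue at 8 dpa they were 6, 4 and 2 under those settings in turn, and 0 rescaled or without the trend. Those of the contractile list moved in wound epidermis at 3 dpa to 1 with a pseudocount of 0.01 and 3 with a mean of at least 1 or 20 libraries, in wound epidermis at 8 dpa to 11 with 20 libraries, and in soft tissue at 8 dpa to 4 with a pseudocount of 1 or a mean of at least 1, 3 with 20 libraries and 0 rescaled or without the trend. Those of the other LIM genes moved in wound epidermis at 3 dpa to 1 with a mean of at least 1 and 2 with 20 libraries, in wound epidermis at 8 dpa to 4 without the filter or the trend, in soft tissue at 3 dpa to 1 rescaled or without the trend, and in soft tissue at 8 dpa to 8 with a pseudocount of 1, a mean of at least 1 or 20 libraries and 0 rescaled or without the trend. Over all transcripts, soft tissue had 3046 calls at 3 dpa and 1103 at 8 dpa in the main fit. These were 4231 and 4104 with a pseudocount of 1, and 2557 and 2692 of 31656 with a mean of at least 1. With 20 libraries they were 6710 and 4101, rescaled 2202 and 466, and without the trend 2779 and 371. Transcripts at 0 in both control libraries of 3 dpa numbered 0 in wound epidermis and 1 in soft tissue where the others had at least 5 or at least 10 TPM, and 2 in wound epidermis where under 0.05 TPM counted as 0.

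Libraries with the same replicate label did not deviate together (correlations from -0.10 to 0.14), so the main fits did not pair them. With the replicate block the focal adhesion list had 1 call in wound epidermis at 8 dpa and 0 in soft tissue at 3 and 8 dpa, the other lists 0 in soft tissue at 8 dpa, and CSRP1 in wound epidermis vs. soft tissue at 8 dpa kept its call (-1.88, limma adjusted p = 0.0301). A replicate term per condition for the shared animals, added after seeing the data, left CSRP1 in wound epidermis vs. soft tissue at -1.15 at 3 dpa, now called (limma adjusted p = 0.0259). Over all transcripts the block gave 113 calls in wound epidermis at 3 dpa, and 1870 and 192 in soft tissue at 3 and 8 dpa. Crossing the numbers in soft tissue at 8 dpa with MS-275, an alternative chosen after seeing the data, gave 15444 calls against 0 dpa, beside 14664 uncrossed.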
